A study of Drosophila melanogaster with 32 samples.

Results

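The canonical cytosolic ribosomal protein genes of Drosophila melanogaster were followed through the testis, from spermatogonia to spermatocytes. Members were taken from the gene count tables by FlyBase symbol: RpL or RpS with a number and optional letters, the stalk genes RpLP0, RpLP1 and RpLP2, and sta (stubarista, which encodes the small-subunit protein also called RpSA). Testis paralogs such as RpL10Aa, RpL22-like and RpS5b and other names ending in -like were left out. RpL37-1 and RpL37-2, whose symbols have another form, were decided by synonym. RpL37-1 was kept, and RpL37-2 was left out with the testis paralogs. The rule gave 76 genes of 17559 identifiers in the tables, 45 of the large 60S subunit and 31 of the small 40S subunit. All 76 passed the filter on low counts and were tested. RpL19, RpL27A, RpL31, RpS10b and RpS12 fit the rule by name, but no row matched them, and they were not analysed here.

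RNA-seq was made from rRNA-depleted total RNA of testes of males under 2 days old, 100 pairs of testes per library, with 2 libraries in each of 4 groups. The bam group was homozygous for a loss of bam, the gene that spermatogonia need to stop dividing and differentiate, and its testes are enriched for spermatogonia per the labels. The 48h and 72h groups carried the same bam loss and, in addition, a Bam transgene under a heat shock promoter, and were dissected 48 h and 72 h after a pulse at 37 °C for 30 min. Their labels name young spermatocytes at 48 h and mature spermatocytes at 72 h. The aly group was homozygous for a loss of aly, which encodes a subunit of a testis-specific transcription complex of spermatocytes, and its label also names mature spermatocytes. Before dissection bam flies had grown at 22 °C for 12 days, aly flies at 25 °C for 10 days, and the shocked flies at 22 °C for 9 days and then at 25 °C. No shocked RNA-seq library without the transgene is in this series as analysed here, so genotype, shock and temperature cannot be told apart in the RNA comparisons with bam or aly, nor stage and time since the shock at 72 h against 48 h.

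A eukaryotic ribosome joins its ribosomal RNAs with a single copy of most ribosomal proteins and several copies of the stalk proteins RpLP1 and RpLP2. Cells that grow and divide make these proteins in large and roughly matched amounts, and in flies a reduced gene dose of many of them slows development and thins the bristles, the Minute phenotype. Proliferating spermatogonia make ribosomes for growth. Spermatocytes also grow before meiosis, while switching on a large set of genes that are silent elsewhere.

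Library totals were 20064489 to 28984275 counts. Libraries of a group were close to each other: the biological coefficient of variation was 2.11%, against 17.3% between libraries of the CAGE assay (cap analysis of gene expression, which counts transcript 5′ ends) of the same study. The labels do not say whether replicates came from separate crosses, so p-values measure the spread between these libraries, which may be technical. With so small a spread the test called 80.2% to 89.8% of all 13495 genes tested, depending on the comparison, so counts at 2-fold or more are given beside those of any size. The transcripts of bam and aly were counted in their own mutants, with TMM-normalised counts (CPM, scaled to library size) of 94.8 and 98.5 for bam in bam and of 71.9 and 69.6 for aly in aly, so neither checks its label. Spermatocyte markers check the stage: their summed level over 6 genes was 43.3 to 44.4 CPM in bam, with comr and sa at 0, and 1683 to 1687 CPM at 48 h. At 72 h the sum was 1089 to 1101 CPM, and in aly 2916 to 2918 CPM. Of 4 genes of spermatogonia and early germ cells, nanos, stg and bam were lower at 48 h than in bam mutants, by 7.38-fold, 7.53-fold and 3.29-fold, and bgcn was not called (log2 -0.01). From 48 h to 72 h nanos was 1.68-fold higher and bam 2.28-fold lower, and stg and bgcn were not called. These markers were mixed in aly against 72 h: bam was 7.50-fold higher, nanos 5.18-fold and stg 4.19-fold lower, and bgcn was not called.

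The 76 genes took 8.56% and 8.69% of the nuclear gene counts in the 2 bam libraries. In the 48h libraries the share was 4.17% and 4.23%. Libraries of the 72h group had 3.30% and 3.35%, and the aly libraries 3.72% and 3.79%. Groups did not overlap, and the order was bam, 48h, aly, 72h from high to low. Group means were 8.62% ± 0.094 (bam), 4.20% ± 0.045 (48h), 3.32% ± 0.031 (72h) and 3.76% ± 0.049 (aly), each with its SD and n = 2. With 2 libraries against 2 the smallest exact two-sided permutation p is 0.333, so no test of these shares can pass 0.05. Wilson 95% intervals, which cover counting error only, were narrow, for example 8.54% to 8.57% in the first bam library. The ratio of large-subunit to small-subunit counts moved less, from 1.28 in both bam libraries through 1.27 and 1.26 (48h) to 1.22 (72h) and 1.20 (aly). Shares and CPM are relative to the other counts of a library, so amounts of transcript per cell were not measured. In bulk tissue fewer cells of a type, less RNA per cell and more RNA from other genes cannot be told apart.

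**Figure D1:**
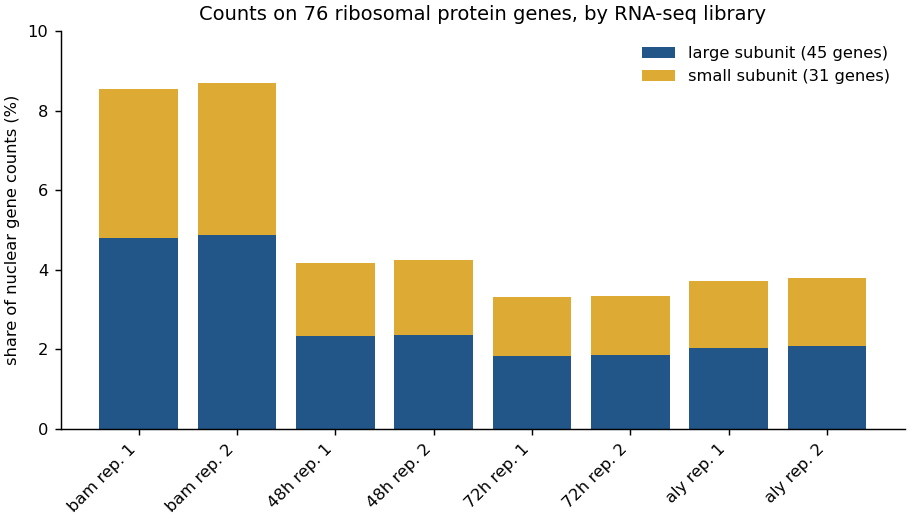
Share of nuclear gene counts (percent, y axis) on the 76 ribosomal protein genes in each of the 8 RNA-seq libraries (x axis), stacked by large subunit (blue) and small subunit (yellow). The bam libraries stand at 8.56% and 8.69%, and the 6 others lie between 3.30% and 4.23%.

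Between bam and 48 h all 76 genes fell in normalised count. In edgeR's quasi-likelihood test with Benjamini-Hochberg adjustment over all genes, 76 of 76 were lower at an adjusted p below 0.05, where 41.8% of all genes tested were. At 2-fold or more 69 of 76 were lower, against 22.7% of all genes tested, and none was higher, against 30.2%. The median change of the members was -1.27 on the log2 scale, or 2.41-fold lower, and lay 1.33 below the median of all genes tested, which was 0.06. The fall was even: the SD over the 76 changes was 0.19, and the range was -1.61 (RpS15Aa) to -0.58 (RpL38). Medians were -1.28 for the large subunit and -1.25 for the small. The 7 genes that fell by less than 2-fold were RpS3A, RpL29, RpL36, RpL39, RpS21, RpL24 and RpL38. With the wider spread of the CAGE libraries in place of the RNA-seq spread, 76 of 76 were still called lower, where 32.6% of all genes were. Without the first or the second 48h library the 2-fold count was 40 or 45, with the median of all genes at 0.27 or 0.25, and without a filter on low counts it was 41.

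Markers of other tissue in the dissected testes moved in the same comparison. All 6 sheath muscle markers were lower at 48 h than in bam, with a summed level of 1472 to 1487 CPM in bam and 612 to 623 CPM at 48 h, and their median change was -1.29. All 5 fat body markers tested were lower as well, and 1 more, Yp1, was at 0 in bam, while all 6 accessory gland markers were higher, from 88.2 to 92.2 CPM summed in bam to 571 to 575 CPM. Of the 7 hub and cyst cell markers 4 were lower and 2 higher, with sums of 312 to 314 and 190.2 to 192 CPM. Their part in the result was not tested.

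From 48 h to 72 h the members moved less evenly than in the step before. Of the 76, 26 rose, against 45.9% of all genes tested, and 45 fell, against 34.3%. Together 71 were called, where 80.2% of all genes tested were, and the 5 not called were RpS27A, RpS2, RpS18, RpL9 and RpL37A. At 2-fold or more RpL38 alone was higher, by 1.14 on the log2 scale, against 28.8% of all genes tested, and RpL23A and RpL4 were lower, by -1.35 and -1.12, against 7.51%. Among the 49 members overlapped by no other gene, snoRNA genes aside, 1 was higher and 0 were lower at that size. The median change was -0.09, or 0.25 below the all-gene median of 0.16, and 58 of 76 lay below that median. The SD over the members was 0.42, against 0.19 in the step before. Over all genes tested the SD was 1.46 here and 2.97 in that step. The split differed between settings: 30 were higher and 32 lower with DESeq2, whose median was 0.002, against 8 and 63 with library size alone, 12 and 58 without a filter on low counts, and 11 and 57 or 13 and 57 without the first or the second 48h library. RpL38 stayed higher under all of these, by 0.82 to 1.23, but by less than 2-fold under each of them except DESeq2, while RpL23A and RpL4 stayed lower by 2-fold or more. With the CAGE spread 64 of 76 were not called. RpL38, RpL39 and RpL29 were called higher, where 34.5% of all genes were. The 9 called lower, where 18.4% of all genes were, were RpL23A, RpL4, RpS13, RpL28, RpS19a, RpL34b, RpL40, RpL12 and RpL7A.

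Against bam, the 72h libraries showed 75 of 76 genes lower, where 43.6% of all genes tested were lower, and 1 higher, against 46.1%. That is all 76 called, where 89.8% of all genes tested were. At 2-fold or more 64 were lower, against 27.9%, with a median change of -1.41, or 1.47 below all genes, and an SD of 0.52. RpL38 was the exception, at 0.56 above bam. RpL39, RpS21, RpL29, RpS14b and RpL41 fell the least, by -0.24 to -0.54, and RpL23A, RpL4, RpS19a, RpS13 and RpL28 the most, by -2.68 to -2.06. With the CAGE spread 71 members were called lower and 1 higher, where 4974 and 5569 of all 13495 genes tested were. The 4 not called were RpL39, RpS21, RpL29 and RpS14b. In the same comparison all 6 sheath muscle markers (median -0.84) and all 5 fat body markers (-1.43) were lower, and all 6 accessory gland markers were higher (5.37). Their part in the result was not tested.

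**Figure D2:**
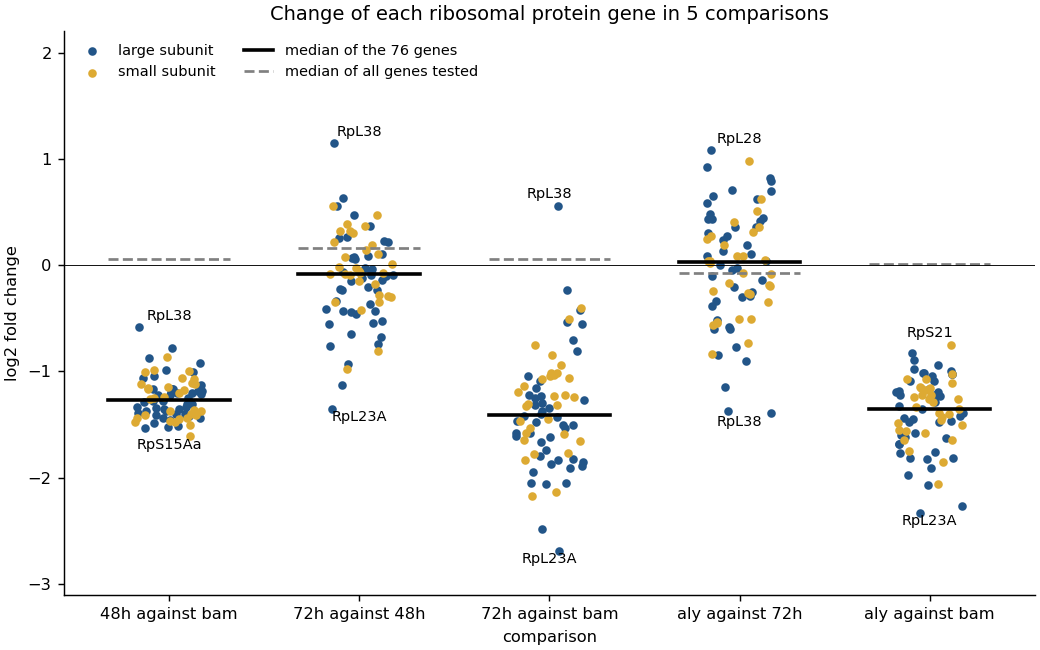
Log2 fold change (y axis) of each of the 76 genes in 5 comparisons (x axis), coloured by subunit, with the median of the members (black line) and of all 13495 genes tested (grey dashes). The points lie in a tight band at 48h against bam (SD 0.19) and spread in the later comparisons (SD 0.42 at 72h against 48h and 0.53 at aly against 72h).

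In aly mutants the members' median was close to that at 72 h, but single genes were higher or lower. Against 72 h the median was 0.03 (-0.05 with DESeq2's scaling), or 0.10 above the all-gene median of -0.07, with 34 genes higher and 35 lower, where 42.2% and 45.9% of all genes tested were. That is 69 called genes of 76, where 88.1% of all genes tested were called. The SD over members was 0.53, against 3.37 over all genes tested. At 2-fold or more RpL28 was higher, by 1.08, against 22.1% of all genes tested, and RpL38, RpL41 and RpL39 were lower, by -1.39, -1.37 and -1.15, against 33.6%. Among the 49 members overlapped by no other gene, snoRNA genes aside, 0 were higher and 1 was lower at that size. With library size alone 48 were higher and 22 lower. With the CAGE spread 11 were called higher and 14 lower, where 32.2% and 38.5% of all genes were. Against bam, aly libraries had 76 of 76 genes lower, where 40.5% of all genes were, and 70 of 76 by 2-fold or more, where 25.3% were, with a median of -1.35 and a range from -2.33 (RpL23A) to -0.75 (RpS21). All 6 sheath muscle markers (median -1.29), all 5 fat body markers (-1.44) and 5 of 7 hub and cyst cell markers (-1.31) were lower in aly than in bam as well, and their part in the result was not tested.

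By the SD over members, the profile of aly lay nearer to 48 h than the 72h profile did. That SD was 0.27 for aly against 48 h and 0.42 for 72 h against 48 h. By the median aly was not nearer, at -0.11 against -0.09. Single members ran from -0.99 to 0.29 in aly against 48 h, and from -1.35 to 1.14 at 72 h against 48 h. The comparisons of 72 h with 48 h and of aly with 72 h share the 72h libraries, so their values are given side by side and not as independent evidence of opposite change. Genotype, shock and growth temperature also differ between aly and 72h. Accessory gland markers, at 2190.3 to 2221 CPM summed at 72 h, were at 91.7 to 93.0 CPM in aly, and their part in these differences was not tested.

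**Figure D3:**
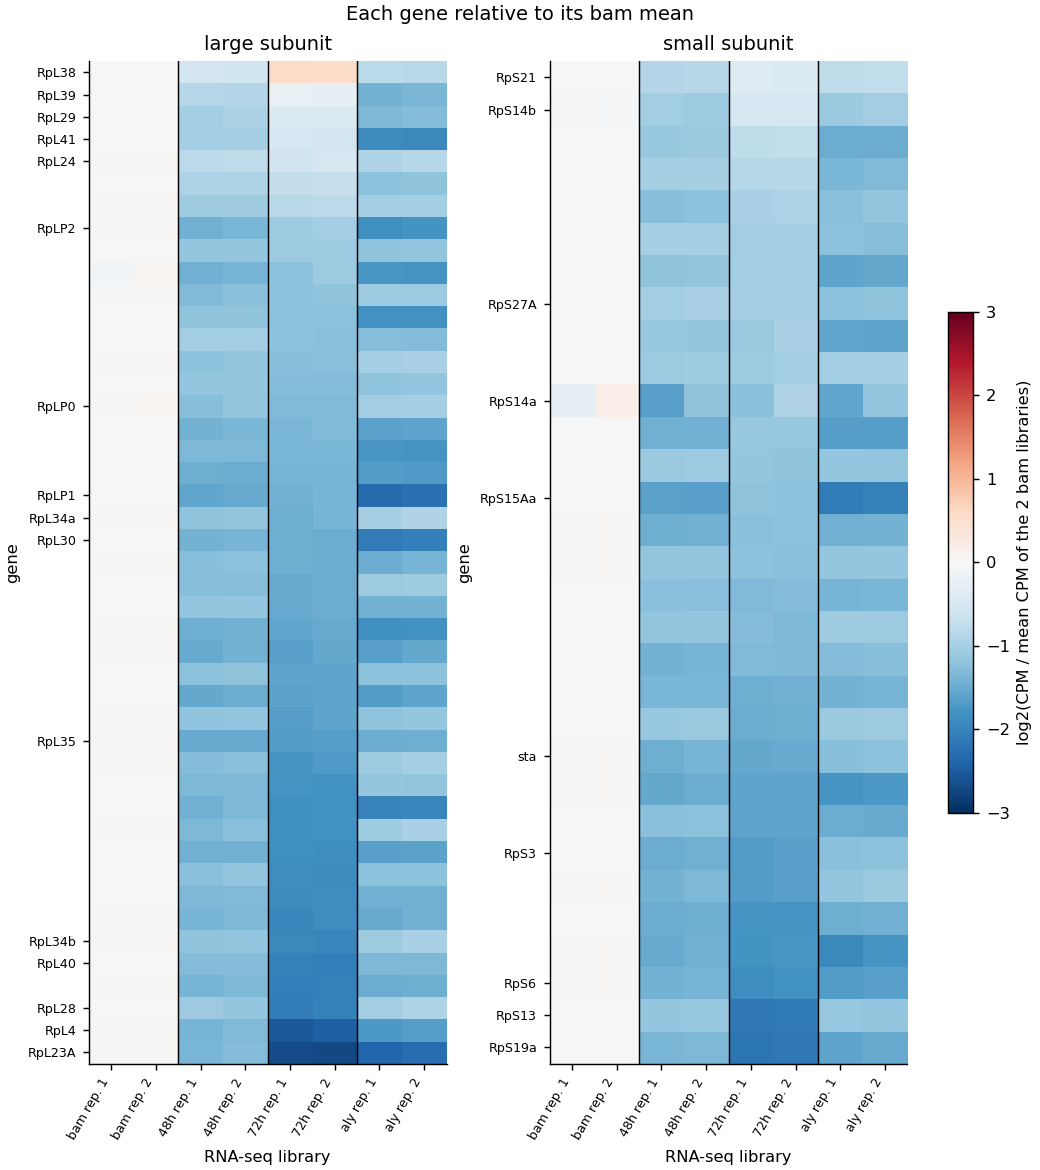
Log2 ratio of the normalised count in each library (columns) to the gene's mean in the 2 bam libraries, for the 45 large-subunit and 31 small-subunit genes (rows, with names for those the naming rule picked), sorted by the change at 72h against bam. The 48h columns are evenly blue, the 72h columns run from above 0 (RpL38) to -2.68 (RpL23A), and RpS14a differs between the libraries of each group.

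RpL38 encodes a small 60S protein that in mice is needed for the translation of a subset of Hox mRNAs. It stood at 282 and 286 CPM (bam), 192 and 188 (48h), 420.2 and 418 (72h) and 161 and 159 (aly). The 4 groups did not overlap, and 72h was the highest of them. The change was 2.21-fold up from 48 h to 72 h (log2 1.14 ± 0.02 SE, adjusted p = 1.1e-28, and 2.5e-05 with the CAGE spread). In aly RpL38 was 2.62-fold lower than at 72 h (log2 -1.39 ± 0.02, adjusted p = 7.1e-31).

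RpL41 encodes one of the shortest peptides known in eukaryotes. It was at 926 and 938 CPM (bam), 458 and 469 (48h), 643 and 639 (72h) and 251 and 245 (aly). So it fell 2.01-fold, rose 1.38-fold (adjusted p = 2.1e-19, but 0.11 with the CAGE spread), and was 2.58-fold lower in aly than at 72 h. RpL39, which lines the tunnel through which the new protein leaves the ribosome, was at 213 and 211 CPM in bam, 116 in both 48h libraries, 181 and 179 (72h) and 79.9 and 82.3 (aly). RpL29, a small basic 60S protein, stood at 208 and 212, 103 and 109, 157 and 155, and 82.7 and 84.5 CPM in the same order of groups. These genes share one order of groups with RpL41: bam highest, then 72h, then 48h, and aly lowest, with no overlap. With the CAGE spread 72h was not called against bam for RpL39 (log2 -0.24, adjusted p = 0.39) or RpL29 (log2 -0.43, adjusted p = 0.11). RpL39 is on chromosome arm 2R, where it overlaps RpL12 by a few bases: its span starts at 24061853 and that of RpL12 ends at 24061860. RpL41 lies within the annotated span of the sodium channel gene NaCP60E. The sources used here do not say whether the counting used strand, so reads of overlapping genes cannot be told apart.

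**Figure D4:**
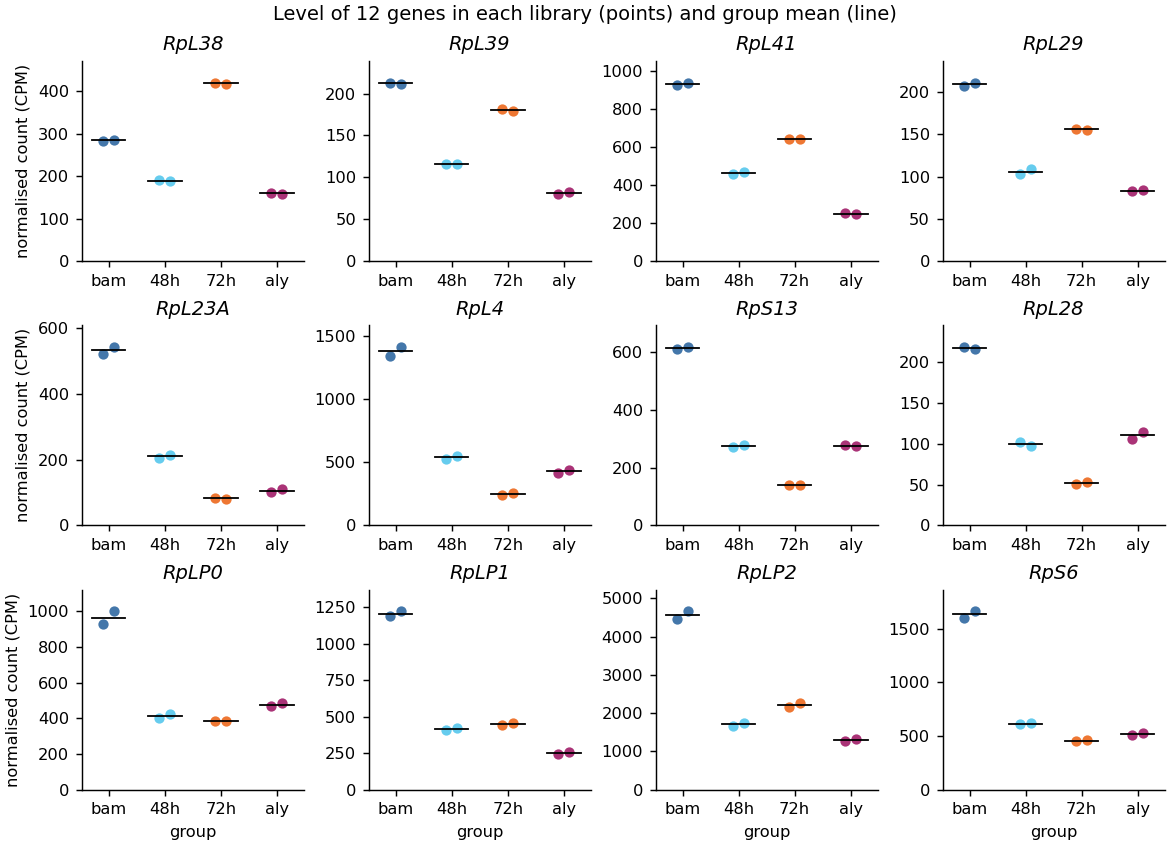
Normalised count (CPM, y axis from 0) of 12 genes in each library (points) and as group mean (line), by group (x axis). The top row holds genes that rose from 48h to 72h and were lowest in aly, and the middle row genes that were lowest at 72h.

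Other large-subunit genes went the other way. RpL23A sits at the mouth of the exit tunnel, where the signal recognition particle docks. Its gene on 3L (dm6, 1666288 to 1668654) holds 4 snoRNA genes and is also overlapped by CG7974 and Uhg7. As above, reads of overlapping genes cannot be told apart. RpL23A was at 522 and 544 CPM (bam), 207 and 216 (48h), 84.5 and 81.4 (72h) and 102 and 110.0 (aly). It fell in both steps, by 2.52-fold and 2.55-fold, which made it 6.43-fold lower at 72 h than in bam. RpL4 (3R, 27922821 to 27924888), whose gene overlaps lncRNA:CR45566, reaches into the exit tunnel with a long loop. Its levels were 1341 and 1413, 528 and 548, 240.2 and 253, and 416 and 439.6 CPM, a 2.18-fold fall from 48 h to 72 h (log2 -1.12 ± 0.03, adjusted p = 3.9e-26) and a level 1.74-fold higher in aly than at 72 h.

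RpL28 is a eukaryote-specific 60S protein, and its gene overlaps nSMase. It was at 219 and 217 CPM (bam), 102 and 98.0 (48h), 51.0 and 53.5 (72h) and 106 and 114 (aly). Its aly level was 2.11-fold that of 72 h (log2 1.08 ± 0.04, adjusted p = 3.0e-22) and lay above 48h in both libraries. RpL35, next to the exit of the tunnel, fell 2.87-fold at 48 h and then differed little, with changes of -0.15 and 0.19 in the 2 later steps. RpL24, which forms a bridge between the subunits, fell the least after RpL38 at 48 h, by 1.72-fold. RpL30, which in yeast represses the splicing of its own transcript, was at 885 and 910.5 CPM (bam), 338 and 343 (48h), 327 and 322 (72h) and 210.2 and 217 (aly). That makes it one of the 3 members with the lowest aly level against bam, at -2.07.

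The stalk genes split within the complex. The stalk of the large subunit recruits and activates the translation factors that hydrolyse GTP, RpLP0 forming its base and RpLP1 and RpLP2 its arms. RpLP1 was at 1188 and 1222 CPM (bam), 411 and 424 (48h), 445 and 456 (72h) and 245 and 256 (aly). RpLP2 was at 4453 and 4668, 1676 and 1749.7, 2174 and 2256, and 1281 and 1318 CPM. RpLP0 was at 927 and 1000.1, 399.9 and 425, 386 and 387, and 469 and 485 CPM. All fell at 48 h, by 2.89-fold, 2.66-fold and 2.34-fold. In aly RpLP1 and RpLP2 were 1.80-fold and 1.70-fold lower than at 72 h, while RpLP0 was 1.23-fold higher (adjusted p = 3.4e-11, but 0.28 with the CAGE spread). From 48 h to 72 h the change of RpLP1 was 0.11, and it turned negative with library size alone (-0.22).

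Among small-subunit genes changes at 72 h against bam ran from -2.17 to -0.40, and in the large subunit from -2.68 to 0.56. RpS6, the target of S6 kinase in the growth pathway, was at 1605 and 1665 CPM (bam), 609.6 and 622 (48h), 452 and 465 (72h) and 514 and 529.7 (aly), so 2.65-fold lower at 48 h and 3.57-fold lower at 72 h than in bam. RpS3, at the mRNA entry site, fell 2.76-fold at 48 h and was 1.32-fold higher in aly than at 72 h. sta fell 2.70-fold at 48 h, from 1057 and 1099.9 CPM to 391 and 407 CPM. None of the groups overlapped bam for these 3 genes. How many of all genes lacked such overlap was not counted, but 89.8% of those tested were called at 72 h against bam.

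RpS13 (2L, 8363477 to 8364662) had the strongest dip of the small subunit from 48 h to 72 h. It was at 612 and 619 CPM (bam), 273 and 279 (48h), 139 and 142 (72h) and 279 and 274 (aly), so its aly and 48h libraries overlapped. RpS19a, whose human counterpart is mutated in Diamond-Blackfan anaemia, was at 1292 and 1329.7, 508 and 512, 286 and 298, and 439 and 458 CPM, 4.49-fold lower at 72 h than in bam. RpS15Aa (X, 13335637 to 13337705), a 40S protein that binds the central part of 18S rRNA, fell furthest at 48 h, by 3.04-fold, from 542 and 552 CPM to 181 and 178 CPM. It was at 236 and 234 CPM at 72 h and 129 and 134 CPM in aly. RpS21 was among the least changed in every comparison with bam, with 165 and 168 CPM in bam and 91.2 and 91.5 at 48 h.

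RpL40 and RpS27A are made as fusions to ubiquitin, from which the ribosomal protein is cut. Their levels after 48 h are given side by side. RpL40 was at 804 and 817 CPM (bam), 327 and 329 (48h), 199.8 and 192 (72h) and 318 and 319 (aly). RpS27A was at 2771 and 2858, 1381 and 1426, 1361 and 1392, and 1202 and 1211 CPM. From 48 h to 72 h RpL40 fell by 1.68-fold, while the change of RpS27A was -0.03 (adjusted p = 0.161). In aly against 72 h RpL40 was 1.63-fold higher and RpS27A 1.14-fold lower, which with library size alone turned to 0.04 on the log2 scale.

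Genes of closely similar pairs can share reads, and the sources used here do not say how such reads were counted, so their values are uncertain. RpS14a and RpS14b are neighbours on the X (7933742 to 7934677 and 7934898 to 7935792). RpS14a was at 525 and 719 CPM (bam), 203 and 269.5 (48h), 260.5 and 330.2 (72h) and 213 and 280.4 (aly), the second library of each group being the higher. RpS14b did not show that gap, with 72.0 and 68.4, 34.3 and 33.0, 49.6 and 49.2, and 32.4 and 34.3 CPM. The ratio of RpS14a to RpS14b was therefore 7.29 and 10.5 in bam and 5.25 and 6.71 at 72 h. RpL34a and RpL34b fell alike at 48 h, by 2.29-fold and 2.27-fold. From 48 h to 72 h RpL34b fell by 1.69-fold and RpL34a by 1.17-fold, and the ratio of b to a went from 4.06 and 4.18 to 2.94 and 2.78, then stood at 3.88 and 3.85 in aly.

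Gene length was taken from the RefSeq annotation of Release 6 plus ISO1 MT. Over the 76 genes Spearman's rho between gene length and log2 change was -0.29 at 72 h against 48 h and 0.30 in aly against 72 h, and -0.19 at 48 h against bam. These are descriptions across genes that share the same libraries, and genes are not independent replicates. The 26 shortest genes, of 520 to 1149 bases, had a median of 0.03 from 48 h to 72 h and -0.26 in aly against 72 h. The 25 of middle length had medians of -0.18 and 0.10, and the 25 longest, of 1534 to 4677 bases, medians of -0.09 and 0.19. Genes in general showed the same direction: over 13236 genes with a length rho was -0.39 and 0.33. The 3494 genes tested of up to 1149 bases had medians of 1.32 and -2.07. They include genes shorter than any member.

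**Figure D5:**
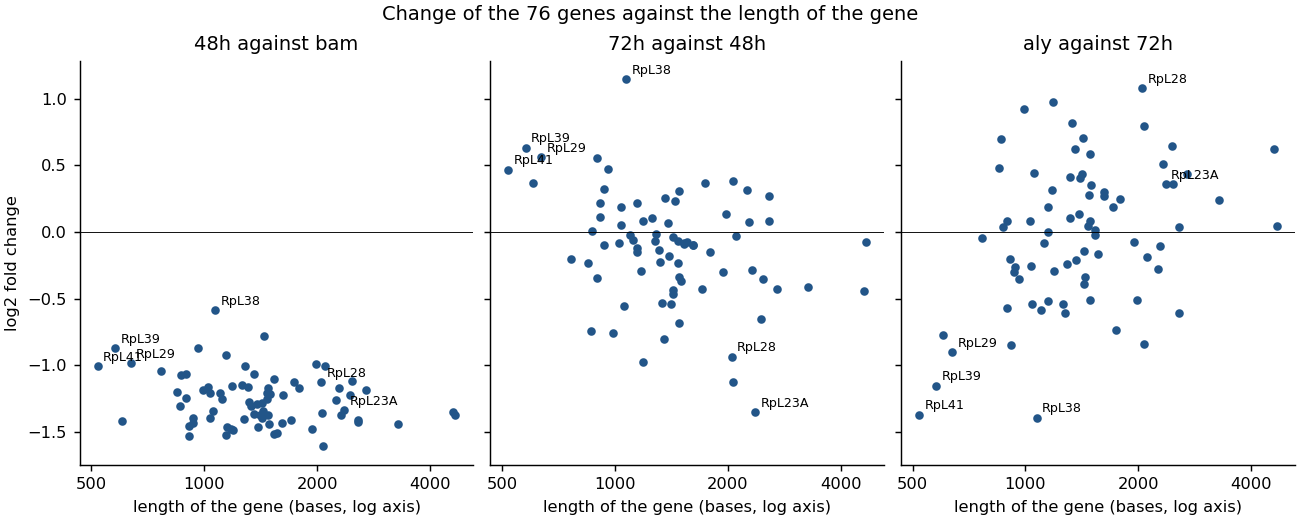
Log2 fold change (y axis) of the 76 genes against the length of the gene in bases (x axis, log scale) in 3 comparisons. RpL41, RpL39 and RpL29 at the short end lie above 0 at 72h against 48h and below -0.8 in aly against 72h, while RpL28 and RpL23A lie on the other side of 0.

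Annotated snoRNA genes, 73 in all, lie within the spans of 27 members. Those hosts had a median of -1.35 at 48 h against bam, and the 49 others -1.24. In aly against 72 h the medians were 0.19 and -0.07. By chromosome arm the medians at 48 h against bam ran from -1.17 for 15 genes on 2R to -1.39 for 17 on 3R, with -1.37 for 14 on the X and -0.99 for the single gene on chromosome 4.

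Other genes that make or use ribosomes were read from lists set with the design. At 48 h against bam 41.8% of all genes tested were lower, which is the share to read the counts below against. Of 7 elongation factors listed, which carry out the steps of peptide addition, 5 were matched, and eEF1alpha1 and eEF5 had no row. All 5 were lower at 48 h than in bam, from eEF1gamma (-1.42) to eEF1alpha2 (-0.33). With the CAGE spread 3 were called lower, where 32.6% of all genes were, and 2 were not called. Of 21 ribosome assembly factors matched 17 fell, 3 rose and 1 was not called, with a median of -1.12. Nop60B, the pseudouridine synthase of H/ACA particles, was the lowest, from 528 and 539.6 CPM in bam to 68.4 and 71.8 at 48 h, 7.61-fold. RIOK2, a kinase of late 40S maturation, was the highest, at 0.68. Of 10 genes of RNA polymerase I and its factors 6 fell and 3 rose, from Polr1B (-2.01) to Polr1E (0.69). Of 11 growth control genes listed 9 were matched, without Tor and S6k, and of these 6 fell and 3 rose. With the CAGE spread 4 were lower and 1 higher. The list was not sorted into genes that promote and genes that restrain growth, so its counts give no direction of growth control. Myc, the transcription factor that drives ribosome genes in growing cells, was at 500.1 and 480.0 CPM in bam and at 87.6 and 87.3 CPM at 48 h, 5.60-fold lower, the lowest of its list, and Rheb, an activator of TOR, the highest (0.98).

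In aly against 72 h, where 42.2% of all genes tested were higher and 45.9% lower, 18 of 21 assembly factors were higher and 1 lower, with a median of 0.78. Of the 10 RNA polymerase I genes 8 were higher and 2 lower, with a median of 0.93. Medians of the elongation factors (0.06) and the growth control genes (-0.01) lay near the 0.03 of the members. Differences between lists were not tested. A list of 5 promoter factors held Trf2, M1BP, Dref, pzg and Tbp. All 5 were higher in aly than at 72 h, from pzg (0.88) to M1BP (3.00). All 5 were lower at 72 h than at 48 h, where 34.3% of all genes tested were. At 48 h against bam that list held 2 higher, 3 lower, between pzg (-1.76) and Trf2 (1.04). Trf2, the TBP relative that serves ribosomal protein gene promoters in flies, was at 656 and 649 CPM (bam), 1333 and 1350.0 (48h), 591 and 576 (72h) and 1694 and 1681 (aly).

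The excluded testis paralogs did not move as 1 group. RpL10Aa went from 0 and 0.043 CPM in bam to 26.9 and 25.4 at 48 h and 178 and 181 at 72 h, and was at 0.144 and 0.129 in aly, whereas RpL22-like, at 883 and 892 CPM in bam and 339 and 338 at 48 h, fell 2.62-fold.

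ATAC-seq, which marks open chromatin, had 1 deposited peak list per condition, so no replicate and no test. Since the annotation at hand gives no strand, a gene counted as having a peak when one overlapped 100 bases either side of either end. By that measure 74 of the 76 members had a peak in bam (97.4%, Wilson 95% interval 90.9% to 99.3%), 74 in the bam heat shock control, 74 at 48 h, 75 at 72 h, 75 in aly and 72 in the mutant of topi, another gene of the aly pathway. That interval treats the genes as independent draws and measures no spread between libraries. Of all 13624 annotated genes 57.4% had a peak in bam and 70.4% at 72 h. Of 11474 genes that also passed the RNA filter 64.7% and 79.1% did. In all 6 lists 71 members (93.4%) had a peak, against 59.2% of those tested genes. The bam heat shock control, a bam mutant shocked without the transgene, matched bam in its count.

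Members without a peak in every list included RpL39, with none in any list, RpL34a, in 3 lists, and RpS14a and RpS24, in 5 each. The median fold enrichment at the peaks of members, the authors' own value, was 5.62 (bam), 5.97 (48h), 5.28 (72h) and 6.35 (aly), where the medians of all genes with a peak were 5.03 (bam), 5.004 (48h), 5.14 (72h) and 5.58 (aly). Within the genes the deposited nucleosome maps placed 2.46 (bam), 2.61 (48h), 2.49 (72h) and 2.02 (aly) positions per kb of member, against 0.943, 1.15, 1.01 and 0.863 per kb over all genes. Positions were pooled over the summed length of genes, so long genes weigh most in the all-gene values. Members are 520 to 4677 bases long, and the values were not matched for length. The median occupancy in members was 0.893, 0.881, 0.903 and 0.920, and 0.844, 0.822, 0.851 and 0.850 over all genes. The depth behind each list and map was not analysed here, so no change between conditions is read from them.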

How the data were processed

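RNA-seq, CAGE and ATAC-seq files of fly testes were used as the authors deposited them. The RNA-seq and CAGE tables hold raw read counts per gene or per cluster of 5′ ends, per the labels' protocols and the deposited values. The authors' peak lists give a fold enrichment (a ratio) and −log10 q per peak, 1 list per condition, and the deposited nucleosome maps give an occupancy as a fraction and the number of reads at each position. Per the submitters' processing notes the build was dm6, with MACS2 2.1.1, BWA 0.7.10, deepTools 2.5.4, bedtools 2.25.0, STAR 2.5.1b and 2.5.4b, and Trim Galore 0.4.1. They give these tools no role, and the sources used here name no counting tool, strand setting or annotation.

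The 8 RNA-seq tables were joined on FlyBase identifier, and symbols and positions came from reference tables of Release 6 plus ISO1 MT. No symbol was found for 306 identifiers, which hold 3.07% of counts. Differences were tested in edgeR 4.0.16 (R 4.3.3) with filterByExpr, TMM scaling and the quasi-likelihood test over all 8 libraries, with Benjamini-Hochberg adjustment over all 13495 genes tested. Calls used an adjusted p below 0.05, at any size and at 2-fold or more. The edgeR fit was tested on simulated data in which few genes changed, up and down in equal number. That setting does not test the scaling where most genes change, as they do here. CPM values are TMM-normalised. Shares are percentages of counts on nuclear genes, and their Wilson intervals cover counting error only. Alternatives were DESeq2 1.42.0, library size alone, TMM without the members, no mitochondrial genome, no filter, the compared groups alone, the CAGE spread as dispersion, the replicate number as a block, and each library left out. Peaks were also counted within 250 bases, by their summits, and at −log10 q of 10 or more. Python 3.11.15 with pandas 2.3.3 was used for the rest.

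Named in each comparison were the 3 members with the highest and the 3 with the lowest change, each member moving 2-fold against the members' median, and a set fixed by role. Other members, named to spell out a small count or a group, were chosen after their values were seen. The members and lists were chosen with earlier results of these data known. The replicate numbers do not pair the samples: deviations of equally numbered libraries correlated by 0.0298 to 0.0961 between groups. Some planned parts were not run. CAGE clusters carry no gene name or position, so members were not tested in CAGE. No sequence of promoters was at hand, so motifs were not searched. The annotation lacks strand, so peaks were read at both gene ends and nucleosomes as positions within genes, both chosen after the files were seen.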

Additional observations from a re-analysis of the deposited data

How the results depend on the processing

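Every member stayed lower at 48 h and in aly than in bam under all alternatives, and the counts at 2-fold or more ran from 40 to 69 and from 59 to 72. At 48 h against bam the count was 41 without a filter on low counts. The members' median relative to all genes was there -1.24 with the compared groups alone and -1.24 without a filter, and -1.30 for members with no snoRNA gene inside. At 72 h against 48 h the count was 8 with library size alone and 5 without a filter, and the relative median -0.25, -0.30 and, for members overlapped by no other gene, -0.26. RpLP1 turned to -0.084 (compared groups alone), -0.22 (library size), -0.10 (no filter) and, leaving out single libraries, ran from -0.11 to 0.12. At 72 h against bam the relative median was -1.43 (compared groups alone), -1.503 (no filter), -1.49 (no overlap) and -1.38 (no snoRNA). In aly against 72 h library size alone gave a count of 7 and RpS27A at 0.038, and the relative median was 0.16 (no overlap) and -0.000283 (no snoRNA), a reversal. In aly against bam it was -1.34 (compared groups alone) and -1.27 (no overlap). Shares of all counts, mitochondrial genome included, were 7.64% (bam), 3.60% (48h), 2.70% (72h) and 3.09% (aly). The cause of these shifts was not tested.

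Leaving out each library in turn, counts at 2-fold or more ran from 40 to 66 at 48 h against bam, from 3 to 5 at 72 h against 48 h, from 61 to 64 at 72 h against bam, at 4 in aly against 72 h, and from 63 to 72 in aly against bam. Relative medians ran from -1.34 to -1.29, from -0.28 to -0.24, from -1.49 to -1.45, from 0.078 to 0.14 and from -1.39 to -1.30. The median of all genes moved by over 0.1: at 48 h against bam it was 0.06, 0.17 with DESeq2 and 0.25 with library size alone, and at 72 h against 48 h 0.16, 0.25 and -0.16. With the replicate block the counts were 69, 3, 64, 4 and 70, as without it; the equal numbers do not pair the samples. DESeq2 called 61, 3, 53, 3 and 59. Among the ATAC settings, members with a peak ran from 62 to 75 at 48 h. The planned CAGE test, motif search and distance to the first nucleosome were not run. Libraries of at least 20064489 counts leave little counting error on these genes.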
